A study of Mus musculus with 12 samples.

Results

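The genes described here are 43 genes of DNA replication and of the passage from G1 into S phase, and their transcripts were measured in primary mouse microglia, the resident macrophages of the brain. They were listed by function, with earlier results of these data known. Each gene was read at the probe set whose only annotated symbol was that gene. Where there were several, the one with the highest mean over all arrays was taken. All 43 were found among the 19938 genes compared, and only Pcna and Tk1 had a further probe set. The cells came from postnatal day 7 pups of the C57BL/6J strain, were taken with magnetic CD11b beads and were kept for 3 days in culture medium with serum. They then received, for 6 h, 10 µM of oligomers of Aβ42 (the peptide that forms plaques in Alzheimer's disease), 100 nM of AE1-329 (which activates EP4, a receptor for prostaglandin E2), both, or vehicle. The vehicles were DMSO at 0.4% for Aβ42 and ethanol at 0.001% for AE1-329. Each of the 4 groups held 3 Affymetrix Mouse Gene 1.0 ST arrays, 1 for each of 3 litters, so that an array stands for the cells of a litter. Arrays with the same replicate number were taken as the same litter in all groups, which the labels do not state.

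Before S phase, the origin recognition complex, Cdc6 and Cdt1 load the ring of Mcm2 to Mcm7 onto DNA, a step called licensing. Cdc45 and the GINS complex join that ring to form the active helicase, and DNA polymerases, primase, the sliding clamp Pcna and its loader then copy the opened strands. Cyclin D and cyclin E kinases inactivate the retinoblastoma family, which frees E2F transcription factors to switch on many of these same genes. Microglia of the early postnatal brain still divide, and microglia can divide in culture when growth factors of the macrophage lineage are present. EP4 couples to the stimulatory G protein and raises cyclic AMP.

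Because E2F factors act on promoters of replication genes, the stretch before the start of each gene was searched for TTTNNCGC, a core of the E2F site, on both strands (GCGNNAAA when read on the other strand, so that matches of opposite strands can overlap). Of the 43 genes, 34 had a promoter window in the RefSeq table for mouse build GRCm38.p6, running from 250 bases before to 50 bases after the start, and some had several. The 6 windows below belong to genes that fell with Aβ42 and had a match lying wholly before the start. Each shows the last 170 bases before the annotated start, written 5′ to 3′ on the gene's strand, with matches in capitals.
Cdc6 (chr11:98907981-98908150, plus strand): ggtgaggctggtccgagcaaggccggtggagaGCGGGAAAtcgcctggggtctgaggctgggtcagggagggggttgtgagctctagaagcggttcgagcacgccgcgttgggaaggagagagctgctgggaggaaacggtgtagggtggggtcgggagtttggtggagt
Gins3 (chr8:95633389-95633558, plus strand): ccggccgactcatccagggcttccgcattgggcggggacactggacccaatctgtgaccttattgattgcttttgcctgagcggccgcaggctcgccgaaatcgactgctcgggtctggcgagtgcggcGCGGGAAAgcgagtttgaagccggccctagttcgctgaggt
Mcm5 (chr8:75109339-75109508, plus strand): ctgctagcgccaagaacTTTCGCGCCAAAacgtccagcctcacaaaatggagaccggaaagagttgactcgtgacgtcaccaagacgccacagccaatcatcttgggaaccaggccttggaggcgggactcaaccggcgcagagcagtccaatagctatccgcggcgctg
Mcm6 (chr1:128359706-128359875, minus strand): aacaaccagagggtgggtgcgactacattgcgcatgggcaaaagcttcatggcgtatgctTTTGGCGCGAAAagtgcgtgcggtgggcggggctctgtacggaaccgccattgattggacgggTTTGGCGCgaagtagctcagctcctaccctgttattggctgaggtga
Mcm7 (chr5:138171884-138172053, minus strand): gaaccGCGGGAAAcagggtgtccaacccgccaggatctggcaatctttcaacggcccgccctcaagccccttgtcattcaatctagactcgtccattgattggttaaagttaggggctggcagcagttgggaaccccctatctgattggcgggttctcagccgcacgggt
Pola1 (chrX:93632156-93632325, minus strand): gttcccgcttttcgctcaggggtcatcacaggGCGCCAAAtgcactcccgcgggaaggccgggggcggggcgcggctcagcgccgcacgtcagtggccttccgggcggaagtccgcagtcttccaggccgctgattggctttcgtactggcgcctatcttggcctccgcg
In the stretches shown, Mcm6 held 3 matches, of which a pair overlapped on opposite strands, Mcm5 held 2 that overlapped in the same way, and Cdc6, Gins3, Mcm7 and Pola1 held 1 each. Over the whole windows, 15 of the 34 genes (44.1%) had a match, against 5.93% of 27025 genes of the table. A match was found in 10 of 23 genes with a window that fell with Aβ42, in 4 of 10 that did not pass the test there, and in 4 of 8 that fell with AE1-329. TGACGT, the core of the cyclic AMP response element, was found in 8 of the 34 genes (23.5%) against 8.37% of all genes. These were E2f1, Mcm2, Mcm5, Mcm10, Orc1, Pola1, Rfc3 and Rfc4. They made up 5 of the 23 that fell with Aβ42, 3 of the 10 that did not pass there and 3 of the 8 that fell with AE1-329. CCAAT was found in 20 of the 34 (58.8%) against 41.06%. These matches describe letters and were not tested as binding sites. Mcm4, Gins1, Gins2, Gins4, Rfc2, Prim2, Pole, Ccnd1 and Ccne2 were not searched.

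Levels are log2 units, in which 1 unit is a 2-fold difference, and differences are between group means ± the standard error (SE) of the limma fit to all 12 arrays. A gene is said to have risen or fallen where limma's p, adjusted by Benjamini-Hochberg over the 19938 genes, was under 0.05. All 9 measured microglia markers lay above the median of the arrays, and their mean level was 10.52 to 10.54 with vehicle, 10.35 to 10.42 with Aβ42, 10.36 to 10.42 with AE1-329 and 10.18 to 10.24 with both. With Aβ42 4 of the 9 fell and 2 rose, and with AE1-329 3 fell and 1 rose. Over all genes 14.8% fell and 10.7% rose with Aβ42, and 5.45% fell and 4.71% rose with AE1-329. The part of the shift in these markers in the results was not tested. The mean levels of marker lists for astrocytes, the oligodendrocyte lineage, neurons, vessel cells, monocytes with border macrophages, and neutrophils with lymphocytes ranged from 5.88 to 7.61 over the arrays. Of these markers, 5 of 8, 4 of 7, 2 of 8, 4 of 8, 3 of 6 and 1 of 7 in that order lay above the median of the arrays, and the part of such cells in the results was not tested. The number of arrays limits the precision. Vehicle replicate 1 stood apart from the other vehicle arrays in the replication genes, with a median over the 43 genes of -0.15 relative to the vehicle mean, against 0.03 and 0.09. The median SD of these genes was 0.180 among vehicle arrays and 0.104 to 0.120 in the other groups. Over all genes it was also larger among vehicle arrays, at 0.109 against 0.063 to 0.066. Counts from fits without this array are given below. Those fits keep replicate 1 of the other groups, which also had the lowest median there. They do not isolate the part of this array in the results, which was not tested.

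After Aβ42 alone, 31 of the 43 genes fell and 1, Cdt1, rose, while 11 did not pass. Over all genes tested, 14.8% fell and 10.7% rose. At an unadjusted p under 0.05 in limma, 35 of the 43 were lower and 1 higher, against 18.5% and 15.3% of all genes. The median difference of the 43 genes was -0.43, against 0.02 for all genes, and single genes ran from -1.18 to 0.43. In 33 genes all Aβ42 arrays lay below all vehicle arrays, which held for 18.6% of all genes, and 1 gene was the other way round (16.4% of all genes). With same-numbered arrays paired as litters, the median difference was -0.44, -0.40 and -0.44 litter by litter. So paired, 39 of the 43 genes were lower in all 3 litters. The share of all genes lower in all 3 litters was not counted. In RNA from whole cultures, fewer cells in S phase and less of a transcript per cell cannot be told apart. With the litter as a block, Mcm10 (adjusted p = 0.008), Rfc5 (0.00445), Fen1 (0.0285), Tyms (0.0443) and Uhrf1 (0.0428) also passed in limma as lower, making 36 against 16.5% of all genes. Without vehicle replicate 1 there were 35, against 17.1% of all genes.

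**Figure D1:**
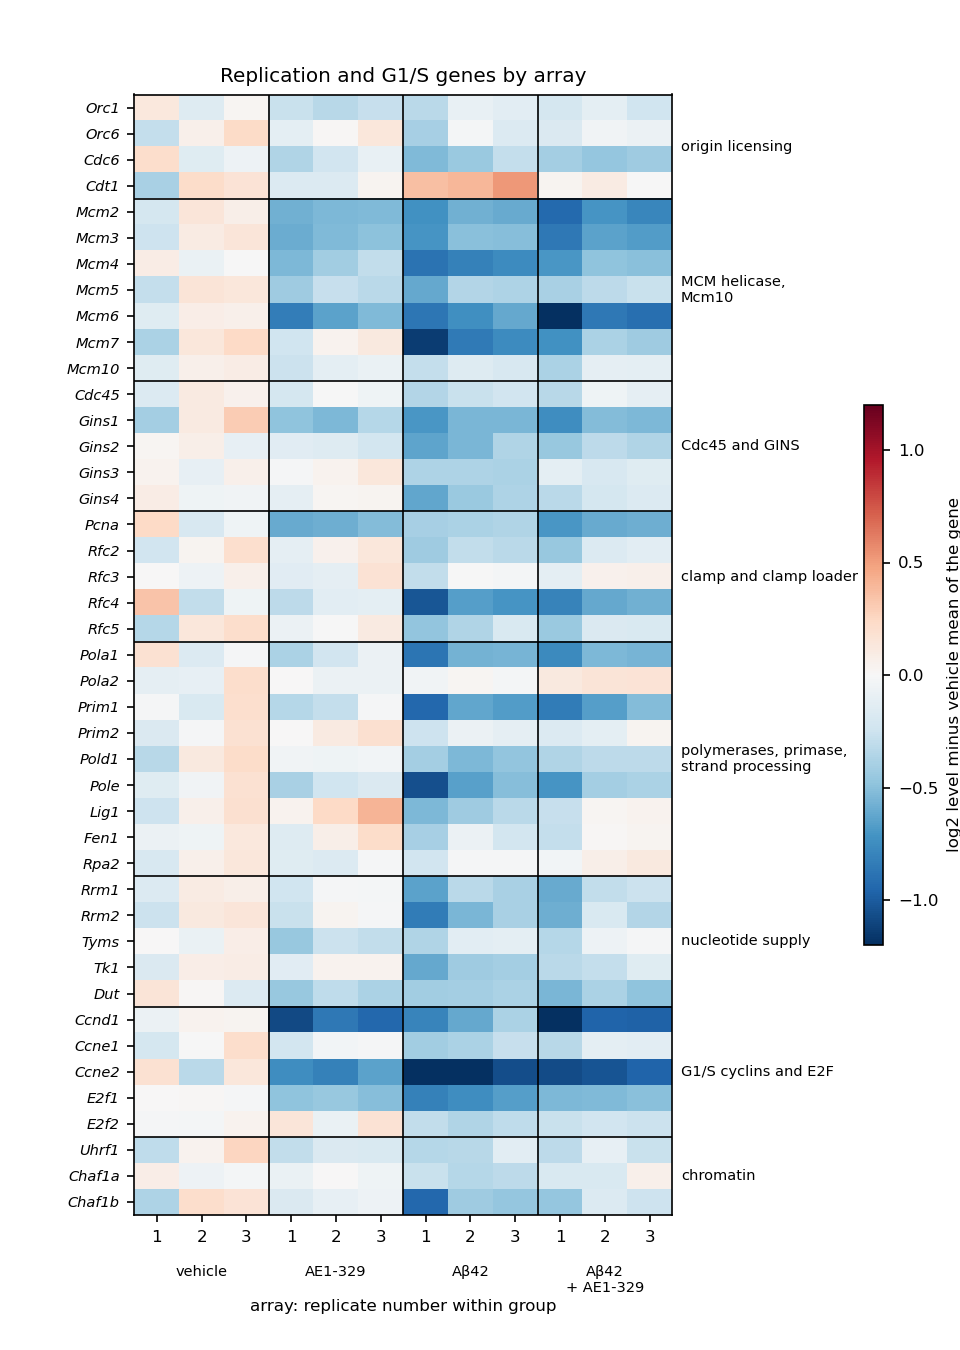
Level of each of the 43 genes (rows, grouped by role) on each of the 12 arrays (columns), as the log2 level minus the gene's mean over the vehicle arrays; the colour scale ends at 1.2 in each direction, and values beyond it take the end colour. The Aβ42 columns are blue in nearly every row except Cdt1, the AE1-329 columns are blue mainly in some of the Mcm rows, Gins1, Pcna, Ccnd1, Ccne2 and E2f1, and replicate 1 of vehicle is bluer than its neighbours in many rows.

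With AE1-329 alone, 11 of the 43 genes fell and none rose, against 5.45% of all genes lower and 4.71% higher. At an unadjusted p under 0.05, 15 were lower and 0 higher, against 11.4% and 9.73% of all genes. The median of the 43 genes was -0.11, against -0.01 for all genes. The genes that fell were Orc1, Mcm2, Mcm3, Mcm4, Mcm6, Pcna, Tyms, Dut, Ccnd1, Ccne2 and E2f1. None of the Cdc45 and GINS genes, the polymerase and primase group or the chromatin group was among them, with 2, 0 and 0 genes lower and 0, 0 and 0 higher at an unadjusted p under 0.05. With the litter as a block limma also called Mcm5 (adjusted p = 0.00685), Gins1 (0.0127) and Pole (0.0221) lower and Lig1 (0.0205) higher, against 6.58% of all genes lower and 6.06% higher. Without vehicle replicate 1 there were 14 lower and 0 higher, against 6.87% and 4.89% of all genes.

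**Figure D2:**
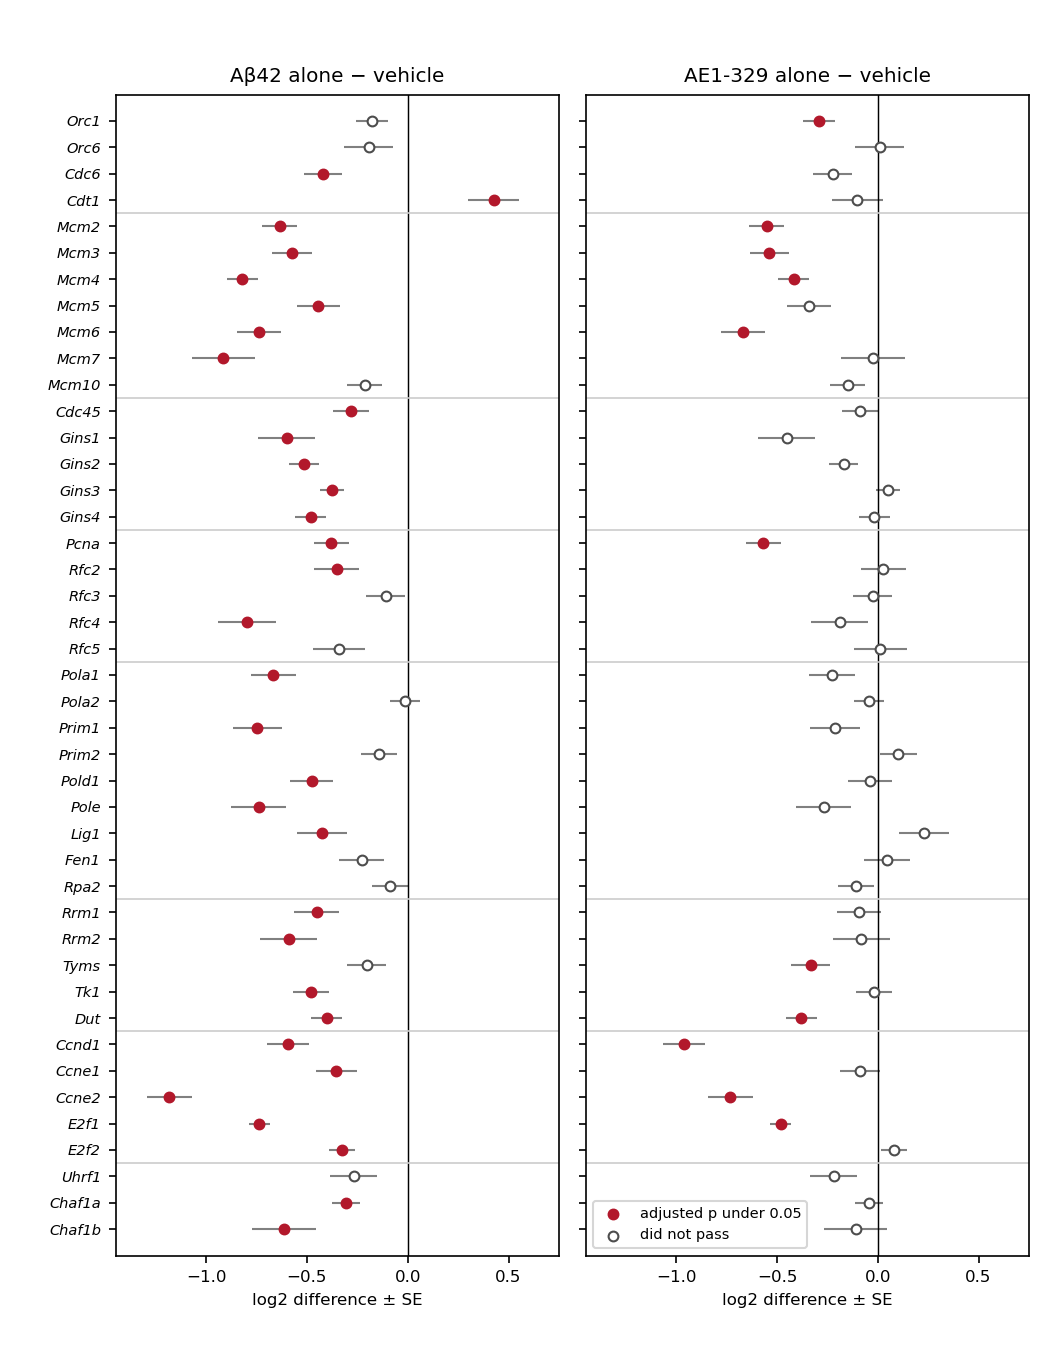
Log2 difference from vehicle (horizontal axis, ± SE of the limma fit, 3 arrays per group) of each of the 43 genes after Aβ42 alone (left) and AE1-329 alone (right); filled points passed at an adjusted p under 0.05 and open points did not. With Aβ42 most points lie left of 0 and Cdt1 lies at 0.43, whereas with AE1-329 many points lie near 0 and Ccnd1 lies at -0.96.

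Of the licensing factors, Cdc6 fell and Cdt1 rose with Aβ42, and Orc1 fell with AE1-329. Cdc6, an ATPase that helps load the helicase, measured 7.14, 6.79 and 6.87 with vehicle, 6.41, 6.49 and 6.65 with Aβ42, 6.58, 6.71 and 6.85 with AE1-329 and 6.52, 6.47 and 6.51 with both. The Aβ42 arrays were all below the vehicle arrays (-0.42 ± 0.10, limma adjusted p = 0.00472), whereas the AE1-329 arrays overlapped them. Cdt1, which delivers the Mcm ring and is normally held in check by geminin, measured 9.22, 9.83 and 9.77 with vehicle, 9.97, 10.01 and 10.12 with Aβ42, 9.44, 9.44 and 9.64 with AE1-329 and 9.64, 9.71 and 9.61 with both. Every Aβ42 array was above every vehicle array (0.43 ± 0.13, limma adjusted p = 0.0247), although vehicle replicate 1 was far below the other vehicle arrays. The call for Cdt1 was lost without Aβ42 replicate 2 or 3, in a fit to the groups compared alone and after adjustment over all probe sets, with adjusted p up to 0.0908 over the alternatives. Orc1, the largest origin recognition subunit, measured 6.22, 5.94 and 6.11 with vehicle, 5.77, 6.00 and 5.96 with Aβ42, 5.82, 5.76 and 5.81 with AE1-329 and 5.88, 5.98 and 5.85 with both. Its AE1-329 arrays were all below the vehicle arrays (-0.29 ± 0.08, limma adjusted p = 0.0313), and its Aβ42 arrays overlapped them. Its call was lost under 7 of the 18 alternatives, with adjusted p up to 0.113. Orc6, the smallest subunit, measured 8.04, 8.39 and 8.56 with vehicle, 7.93, 8.30 and 8.17 with Aβ42, 8.21, 8.35 and 8.46 with AE1-329 and 8.16, 8.29 and 8.26 with both, and its groups overlapped throughout.

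All 6 subunits of the Mcm ring fell with Aβ42, and Mcm2, Mcm3, Mcm4 and Mcm6 fell with AE1-329 as well. Mcm7 measured 9.26, 9.77 and 9.87 with vehicle, 8.50, 8.78 and 8.88 with Aβ42, 9.40, 9.67 and 9.75 with AE1-329 and 8.91, 9.26 and 9.21 with both. It was 1.89-fold lower with Aβ42 (-0.91 ± 0.16, limma adjusted p = 0.000662) and near the vehicle level with AE1-329 (-0.02 ± 0.16). Mcm4 measured 9.13, 8.96 and 9.03 with vehicle, 8.15, 8.23 and 8.28 with Aβ42, 8.50, 8.63 and 8.74 with AE1-329 and 8.34, 8.56 and 8.54 with both. The vehicle arrays of Mcm4 were above all others, and the Aβ42 arrays were the lowest, at -0.82 ± 0.08 from vehicle (limma adjusted p = 3.65e-06) against -0.42 ± 0.08 for AE1-329 (0.00366). Mcm6 measured 9.43, 9.65 and 9.63 with vehicle, 8.71, 8.83 and 8.96 with Aβ42, 8.74, 8.93 and 9.04 with AE1-329 and 8.35, 8.71 and 8.66 with both. Here the single treatments lay close together, at -0.74 ± 0.11 for Aβ42 and -0.67 ± 0.11 for AE1-329 (limma adjusted p = 0.000178 and 0.00144). Mcm2 measured 9.35, 9.70 and 9.62 with vehicle, 8.84, 8.98 and 8.95 with Aβ42, 8.98, 9.02 and 9.03 with AE1-329 and 8.63, 8.85 and 8.78 with both. Mcm2 likewise had nearby values under either agent, at -0.64 ± 0.09 and -0.55 ± 0.09 (limma adjusted p = 9.64e-05 and 0.00116). Mcm3 changed by -0.57 ± 0.10 with Aβ42 and -0.54 ± 0.10 with AE1-329 (limma adjusted p = 0.000652 and 0.00323). Mcm5 fell by 0.44 with Aβ42 (limma adjusted p = 0.00772), and its difference with AE1-329 was -0.34 ± 0.11 (0.0675). Mcm10, which activates the assembled helicase, differed by -0.21 ± 0.09 and -0.15 ± 0.09 and did not pass in either (limma adjusted p = 0.0966 and 0.383).

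Cdc45 and the 4 GINS genes all fell with Aβ42, and none of the 5 passed with AE1-329. Gins2 measured 9.27, 9.33 and 9.15 with vehicle, 8.62, 8.70 and 8.89 with Aβ42, 9.12, 9.10 and 9.03 with AE1-329 and 8.80, 8.94 and 8.89 with both. Its Aβ42 arrays lay at -0.51 ± 0.07 from vehicle (limma adjusted p = 0.000154), and the AE1-329 arrays, also all below vehicle, at -0.17 ± 0.07 (0.205). Gins3 measured 7.94, 7.79 and 7.96 with vehicle, 7.52, 7.52 and 7.51 with Aβ42, 7.88, 7.93 and 8.03 with AE1-329 and 7.78, 7.70 and 7.75 with both. The 3 Aβ42 arrays of Gins3 had an SD of 0.0056 and were the lowest of all (-0.38 ± 0.06, limma adjusted p = 0.000295). Gins4 measured 10.54, 10.40 and 10.41 with vehicle, 9.83, 10.00 and 10.08 with Aβ42, 10.34, 10.48 and 10.49 with AE1-329 and 10.13, 10.24 and 10.29 with both. Gins4 fell by 0.48 with Aβ42 (limma adjusted p = 0.000324) and lay at -0.02 ± 0.08 with AE1-329. Gins1 measured 6.98, 7.50 and 7.69 with vehicle, 6.69, 6.84 and 6.84 with Aβ42, 6.91, 6.85 and 7.05 with AE1-329 and 6.65, 6.87 and 6.85 with both. Vehicle replicate 1 of Gins1 was close to the treated arrays, and the differences were -0.60 ± 0.14 for Aβ42 (limma adjusted p = 0.00612) and -0.45 ± 0.14 for AE1-329 (0.0646). Cdc45 fell by 0.28 with Aβ42 (limma adjusted p = 0.0321), a call that was lost under 7 alternatives with adjusted p up to 0.118.

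The clamp Pcna fell under both single treatments, while of the clamp loader genes Rfc4 and Rfc2 fell with Aβ42 and none passed with AE1-329. Pcna measured 12.52, 12.09 and 12.22 with vehicle, 11.88, 11.89 and 11.92 with Aβ42, 11.67, 11.69 and 11.76 with AE1-329 and 11.57, 11.67 and 11.69 with both. The AE1-329 arrays were below the Aβ42 arrays, at -0.57 ± 0.09 from vehicle (limma adjusted p = 0.000952) against -0.38 ± 0.09 (0.00528). A further probe set of Pcna gave -0.57 with AE1-329 and -0.38 with Aβ42. Rfc4 measured 10.18, 9.54 and 9.79 with vehicle, 8.81, 9.18 and 9.13 with Aβ42, 9.52, 9.71 and 9.72 with AE1-329 and 9.04, 9.22 and 9.26 with both. Rfc4 was 1.74-fold lower with Aβ42 (-0.80 ± 0.14, limma adjusted p = 0.000815), with no overlap, and its AE1-329 arrays overlapped vehicle (-0.19 ± 0.14). Rfc2 measured 8.20, 8.47 and 8.64 with vehicle, 8.01, 8.14 and 8.11 with Aβ42, 8.33, 8.49 and 8.57 with AE1-329 and 7.98, 8.27 and 8.31 with both. Its Aβ42 arrays were all below vehicle (-0.35 ± 0.11, limma adjusted p = 0.0339), but the call was lost under 8 alternatives with adjusted p up to 0.14. Rfc3 measured 8.75, 8.68 and 8.80 with vehicle, 8.45, 8.74 and 8.71 with Aβ42, 8.60, 8.63 and 8.91 with AE1-329 and 8.63, 8.79 and 8.80 with both, and its groups overlapped. Rfc5 differed by -0.34 ± 0.13 with Aβ42 (limma adjusted p = 0.0771) and 0.01 ± 0.13 with AE1-329.

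Of the 9 genes for polymerases, primase and strand processing, Pola1, Prim1, Pold1, Pole and Lig1 fell with Aβ42, and Pola2, Prim2, Fen1 and Rpa2 did not pass. Prim1, the catalytic subunit of primase, measured 7.94, 7.77 and 8.16 with vehicle, 7.01, 7.33 and 7.29 with Aβ42, 7.61, 7.68 and 7.94 with AE1-329 and 7.12, 7.30 and 7.44 with both. The Aβ42 arrays were all below vehicle (-0.75 ± 0.12, limma adjusted p = 0.000433). Pola1, the catalytic subunit of polymerase alpha, which extends the primers, measured 8.33, 7.98 and 8.14 with vehicle, 7.27, 7.58 and 7.59 with Aβ42, 7.77, 7.91 and 8.08 with AE1-329 and 7.38, 7.61 and 7.59 with both. It too fell without overlap (-0.67 ± 0.11, limma adjusted p = 0.000538). Pole, the catalytic subunit of the leading-strand polymerase epsilon, measured 8.38, 8.49 and 8.71 with vehicle, 7.47, 7.88 and 8.02 with Aβ42, 8.13, 8.28 and 8.35 with AE1-329 and 7.82, 8.12 and 8.15 with both. With Aβ42 it lay at -0.74 ± 0.14 (limma adjusted p = 0.00104), and with AE1-329 at -0.27 ± 0.14 (0.292). Pold1, the catalytic subunit of the lagging-strand polymerase delta, fell by 0.48 with Aβ42 (limma adjusted p = 0.00477). Lig1, which joins Okazaki fragments, measured 8.62, 8.93 and 9.06 with vehicle, 8.33, 8.45 and 8.55 with Aβ42, 8.91, 9.11 and 9.27 with AE1-329 and 8.59, 8.90 and 8.91 with both. Lig1 differed in sign between the single treatments, at -0.43 ± 0.12 with Aβ42 (limma adjusted p = 0.022) and 0.23 ± 0.12 with AE1-329 (0.342). Its call with Aβ42 was lost without vehicle replicate 2 or 3 or Aβ42 replicate 1 or 2, with adjusted p up to 0.0933. Pola2, the accessory subunit of polymerase alpha, measured 8.83, 8.83 and 9.14 with vehicle, 8.89, 8.95 and 8.91 with Aβ42, 8.94, 8.86 and 8.87 with AE1-329 and 9.05, 9.08 and 9.10 with both. Its arrays with both agents were above those with either agent alone. Rpa2, a subunit of the protein that coats single strands, measured 8.04, 8.30 and 8.37 with vehicle, 8.01, 8.23 and 8.22 with Aβ42, 8.09, 8.07 and 8.23 with AE1-329 and 8.20, 8.31 and 8.36 with both, with overlap of the groups. Prim2, the large primase subunit, differed by -0.14 ± 0.09 and Fen1, which trims flaps, by -0.23 ± 0.11 with Aβ42.

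Among the 5 genes of nucleotide supply, Rrm1, Rrm2, Tk1 and Dut fell with Aβ42, and Tyms and Dut fell with AE1-329. Tk1, the thymidine kinase of the salvage route, measured 8.76, 9.01 and 9.02 with vehicle, 8.32, 8.51 and 8.52 with Aβ42, 8.79, 8.97 and 8.97 with AE1-329 and 8.61, 8.64 and 8.78 with both. Its Aβ42 arrays were below all others (-0.48 ± 0.09, limma adjusted p = 0.00101), and AE1-329 left it at -0.02 ± 0.09 from vehicle. A further probe set of Tk1 gave -0.61 with Aβ42. Rrm2, the S-phase subunit of ribonucleotide reductase, measured 9.45, 9.82 and 9.85 with vehicle, 8.86, 9.16 and 9.31 with Aβ42, 9.44, 9.74 and 9.69 with AE1-329 and 9.11, 9.52 and 9.35 with both. It fell by 0.59 with Aβ42 (limma adjusted p = 0.00665), and its partner Rrm1 by 0.45 (0.00844). Dut, which removes dUTP, measured 7.23, 7.09 and 6.92 with vehicle, 6.66, 6.67 and 6.70 with Aβ42, 6.62, 6.78 and 6.70 with AE1-329 and 6.53, 6.70 and 6.59 with both. The vehicle arrays of Dut were above all treated arrays, and the single treatments gave -0.40 ± 0.08 and -0.38 ± 0.08 (limma adjusted p = 0.00142 and 0.00626). In a fit to the groups compared alone, the adjusted p with AE1-329 was 0.0545. Tyms, the thymidylate synthase, measured 8.70, 8.62 and 8.77 with vehicle, 8.33, 8.57 and 8.58 with Aβ42, 8.25, 8.44 and 8.40 with AE1-329 and 8.35, 8.64 and 8.68 with both. Tyms fell by 0.33 with AE1-329 (limma adjusted p = 0.0444), a call that was lost under 10 alternatives with adjusted p up to 0.172.

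All 5 G1/S regulators fell with Aβ42, and Ccne2 had the most negative difference of the 43 genes. Ccne2, a cyclin that activates Cdk2 at the start of S phase, measured 7.63, 7.13 and 7.58 with vehicle, 6.18, 6.23 and 6.38 with Aβ42, 6.70, 6.63 and 6.81 with AE1-329 and 6.37, 6.41 and 6.48 with both. It was 2.27-fold lower with Aβ42 (-1.18 ± 0.11, limma adjusted p = 3.03e-06) and 1.66-fold lower with AE1-329 (-0.73 ± 0.11, 0.000853). E2f1, an activating transcription factor of the G1/S programme, measured 9.86, 9.87 and 9.84 with vehicle, 9.05, 9.11 and 9.20 with Aβ42, 9.37, 9.40 and 9.34 with AE1-329 and 9.32, 9.33 and 9.35 with both. Its vehicle arrays differed by only 0.02 (SD), and from high to low the 4 groups were ordered vehicle, AE1-329, both and Aβ42, where AE1-329 and both overlapped. The differences were -0.74 ± 0.05 for Aβ42 and -0.48 ± 0.05 for AE1-329 (limma adjusted p = 1.67e-07 and 4.85e-05). Ccnd1, the cyclin that joins growth signals to Cdk4 and Cdk6, measured 11.30, 11.42 and 11.41 with vehicle, 10.59, 10.76 and 10.99 with Aβ42, 10.30, 10.52 and 10.43 with AE1-329 and 10.13, 10.41 and 10.41 with both. For Ccnd1 the difference with AE1-329, -0.96 ± 0.10 (limma adjusted p = 6.07e-05), was the largest of the 43 genes in that comparison, and Aβ42 gave -0.59 ± 0.10 (0.000729). Ccne1, the other E cyclin, fell by 0.35 with Aβ42 (limma adjusted p = 0.0192) and differed by -0.09 ± 0.10 with AE1-329. Its call with Aβ42 was lost without vehicle replicate 3 or Aβ42 replicate 1 or 2, with adjusted p up to 0.08. E2f2, another activating E2F, fell by 0.32 with Aβ42 (limma adjusted p = 0.00197) and differed by 0.08 ± 0.06 with AE1-329.

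Both subunits of the histone chaperone CAF-1 fell with Aβ42. Chaf1a measured 7.65, 7.51 and 7.54 with vehicle, 7.30, 7.22 and 7.25 with Aβ42, 7.48, 7.57 and 7.51 with AE1-329 and 7.38, 7.38 and 7.62 with both. Chaf1a fell by 0.31 (limma adjusted p = 0.00482), with all Aβ42 arrays below all vehicle and AE1-329 arrays. Chaf1b measured 8.68, 9.26 and 9.22 with vehicle, 8.11, 8.62 and 8.59 with Aβ42, 8.88, 8.96 and 8.99 with AE1-329 and 8.59, 8.89 and 8.81 with both. Its difference was -0.61 ± 0.16 (limma adjusted p = 0.0101), again without overlap. Uhrf1, which reads hemimethylated DNA behind the fork, measured 7.62, 7.97 and 8.18 with vehicle, 7.58, 7.59 and 7.79 with Aβ42, 7.62, 7.75 and 7.74 with AE1-329 and 7.61, 7.83 and 7.65 with both, and did not pass with Aβ42 (-0.27 ± 0.12, limma adjusted p = 0.123).

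**Figure D3:**
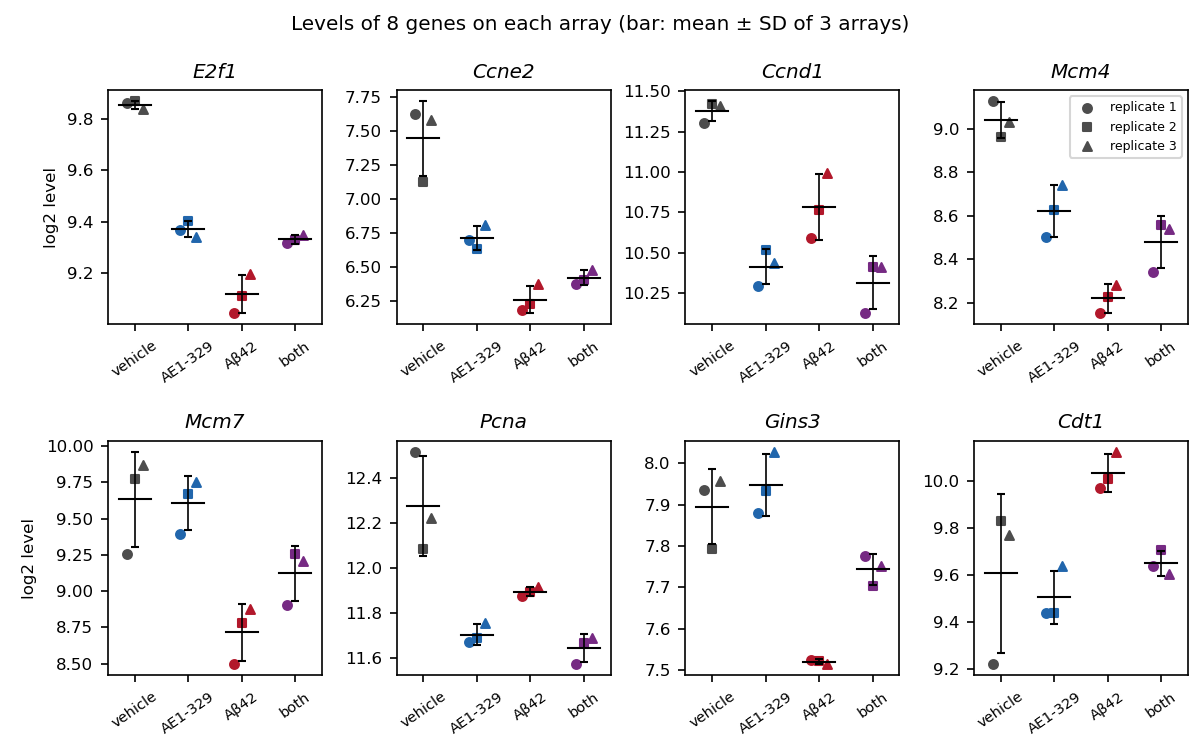
Log2 level of 8 of the genes on each array (points, shaped by replicate number) in the 4 groups, with the mean as a bar and the SD of 3 arrays as the error bar; each panel has its own vertical axis. E2f1, Ccne2 and Mcm4 are lower in all treated groups than with vehicle, Pcna and Ccnd1 are lowest where AE1-329 was given, Mcm7 and Gins3 are lowest with Aβ42 alone, and Cdt1 is highest there.

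Adding AE1-329 to Aβ42 moved few of the 43 genes past the test. Against Aβ42 alone, Gins3 and E2f1 rose, Ccnd1 fell and 40 did not pass, where 5.99% of all genes rose and 5.04% fell. The median of the 43 was 0.11 and 33 were positive, against a median of -0.02 and 8618 positive among all 19938 genes. E2f1 rose by 0.21 ± 0.05 (limma adjusted p = 0.0157), and its arrays with both agents were all above the Aβ42 arrays and all below the vehicle arrays. Gins3 rose by 0.22 ± 0.06 (0.0264 in limma), also without overlap. Of 19 alternatives, 5 ended the call for Gins3, 3 that for E2f1 and 1 that for Ccnd1. Ccnd1 fell by 0.47 (limma adjusted p = 0.0104), and its levels with both agents overlapped those with AE1-329 alone. All arrays with both agents lay above all Aβ42 arrays in 11 of the 43 genes and below them in 3, which held for 15.9% and 16.1% of all genes. Among the 11, Mcm4 (0.26 ± 0.08, limma adjusted p = 0.0526), Mcm7 (0.41 ± 0.16, 0.144), Lig1 (0.36 ± 0.12, 0.097) and Gins4 (0.25 ± 0.08, 0.0537) did not pass. The 3 were Ccnd1, which passed, and Cdt1 (-0.38 ± 0.13, limma adjusted p = 0.0802) and Pcna (-0.25 ± 0.09, 0.0962), which did not.

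These counts depended on the treatment of the litters. With the litter as a block limma called 10 of the 43 higher and 3 lower, against 7.41% and 6.05% of all genes. The higher ones then included Mcm4 (adjusted p = 0.0321), Mcm7 (0.00109), Gins4 (0.034), Pole (0.0365), Lig1 (0.00121), Rrm2 (0.0418), Tk1 (0.0144) and Chaf1b (0.0292), and the lower ones Cdt1 (0.0336) and Mcm6 (0.00976). In all 3 litters, 24 genes were higher and 6 lower with both agents than with Aβ42 alone. The shares of all genes that did so were not counted. Without vehicle replicate 1 there were 6 higher and 3 lower, against 8.47% and 7.05% of all genes, and without vehicle replicate 2 there were 2 lower, against 5.29%. None was higher without Aβ42 replicate 1, Aβ42 replicate 2 or replicate 3 of both agents, and none was lower without replicate 1 of both agents. In those fits 4.09%, 4.21% and 4% of all genes were higher and 3.56% lower. With all arrays, 8 of the 43 were higher and 4 lower at an unadjusted p under 0.05 in limma, against 10.9% and 10% of all genes.

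Among cells that all had AE1-329, Aβ42 lowered 7 of the 43 genes and raised none, against 12.2% and 9.77% of all genes. At an unadjusted p under 0.05, 17 were lower and 1 higher, against 16.4% and 13.8% of all genes. At the adjusted threshold the share of the 43 that fell was close to that of all genes, and the median of the 43 was -0.18, against 0.01 for all genes. The genes that fell were Mcm6 (-0.33 ± 0.11, limma adjusted p = 0.0465), Mcm7 (-0.48 ± 0.16, 0.0442), Gins3 (-0.20 ± 0.06, 0.023), Rfc4 (-0.48 ± 0.14, 0.0276), Pola1 (-0.39 ± 0.11, 0.0228), Prim1 (-0.46 ± 0.12, 0.0151) and E2f2 (-0.33 ± 0.06, 0.0019). Under 19 alternatives the call for E2f2 was never lost, while it was lost under 8 for Mcm6 and for Mcm7, 5 for Rfc4, 4 for Gins3 and for Pola1, and 2 for Prim1. E2f1 (-0.04 ± 0.05), Ccnd1 (-0.10 ± 0.10), Pcna (-0.06 ± 0.09) and Dut (-0.09 ± 0.08) stayed within 0.10 of AE1-329 alone. With the litter as a block limma called 19 lower and 0 higher, against 14.4% and 10.7% of all genes, among them Rrm1 (adjusted p = 0.000762), Lig1 (0.00194), Rrm2 (0.00401) and Mcm2 (0.00741). Leaving out an array gave 13 lower without vehicle replicate 1, 2 without AE1-329 replicate 2, 1 without AE1-329 replicate 3, and 2 without replicate 1 and 4 without replicate 3 of both agents. In those fits 15%, 10.2%, 9.66%, 9.56% and 10.2% of all genes were lower. Further, 1 gene became higher without vehicle replicate 3 (Pola2) or replicate 1 of both agents (Tyms).

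The difference between those Aβ42 effects, which is the interaction of the agents, passed for E2f1, Ccne2 and Mcm4. All 3 were positive, that is, the difference made by Aβ42 was less negative in the presence of AE1-329 than in its absence. Over all genes 1.03% passed as positive and 0.918% as negative. The Aβ42 difference of E2f1 was -0.74 ± 0.05 when AE1-329 was absent and -0.04 ± 0.05 when it was present, an interaction of 0.69 ± 0.07 (limma adjusted p = 0.000249). For Ccne2 the same values were -1.18 ± 0.11 and -0.29 ± 0.11, with an interaction of 0.89 ± 0.16 (0.00913 in limma). For Mcm4 they were -0.82 ± 0.08 and -0.14 ± 0.08, with an interaction of 0.68 ± 0.11 (limma adjusted p = 0.00569). All 3 genes had also fallen with AE1-329 alone, at -0.48 for E2f1, -0.73 for Ccne2 and -0.42 for Mcm4. Both agents against Aβ42 alone gave 0.21 for E2f1, 0.16 for Ccne2 and 0.26 for Mcm4 (limma adjusted p = 0.0157, 0.497 and 0.0526). In each litter the interaction was positive for these genes, at 0.76, 0.68 and 0.65 for E2f1, 1.12, 0.67 and 0.88 for Ccne2, and 0.82, 0.67 and 0.54 for Mcm4.

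Of the 43 genes 40 had a positive interaction, with a median of 0.27, and 17 were positive at an unadjusted p under 0.05 against 0 negative. Over all 19938 genes, 9863 had a positive interaction and the median was -0.0015, and 6.04% were positive and 4.38% negative at that unadjusted p. The vehicle arrays enter the interaction and both single-treatment differences, so these values share samples. The exceptions were Cdt1 (-0.28 ± 0.18), Prim2 (-0.04 ± 0.13) and E2f2 (-0.01 ± 0.09), none of which passed. With the litter as a block 11 passed in limma, against 1.73% of all genes positive, adding Mcm2 (adjusted p = 0.0334), Mcm3 (0.0292), Mcm5 (0.0244), Mcm6 (0.0147), Mcm7 (0.022), Pole (0.012), Tyms (0.0492) and Ccnd1 (0.0128). All 6 ring subunits were then among them. Without vehicle replicate 1 there were 8, against 1.61% of all genes.

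**Figure D4:**
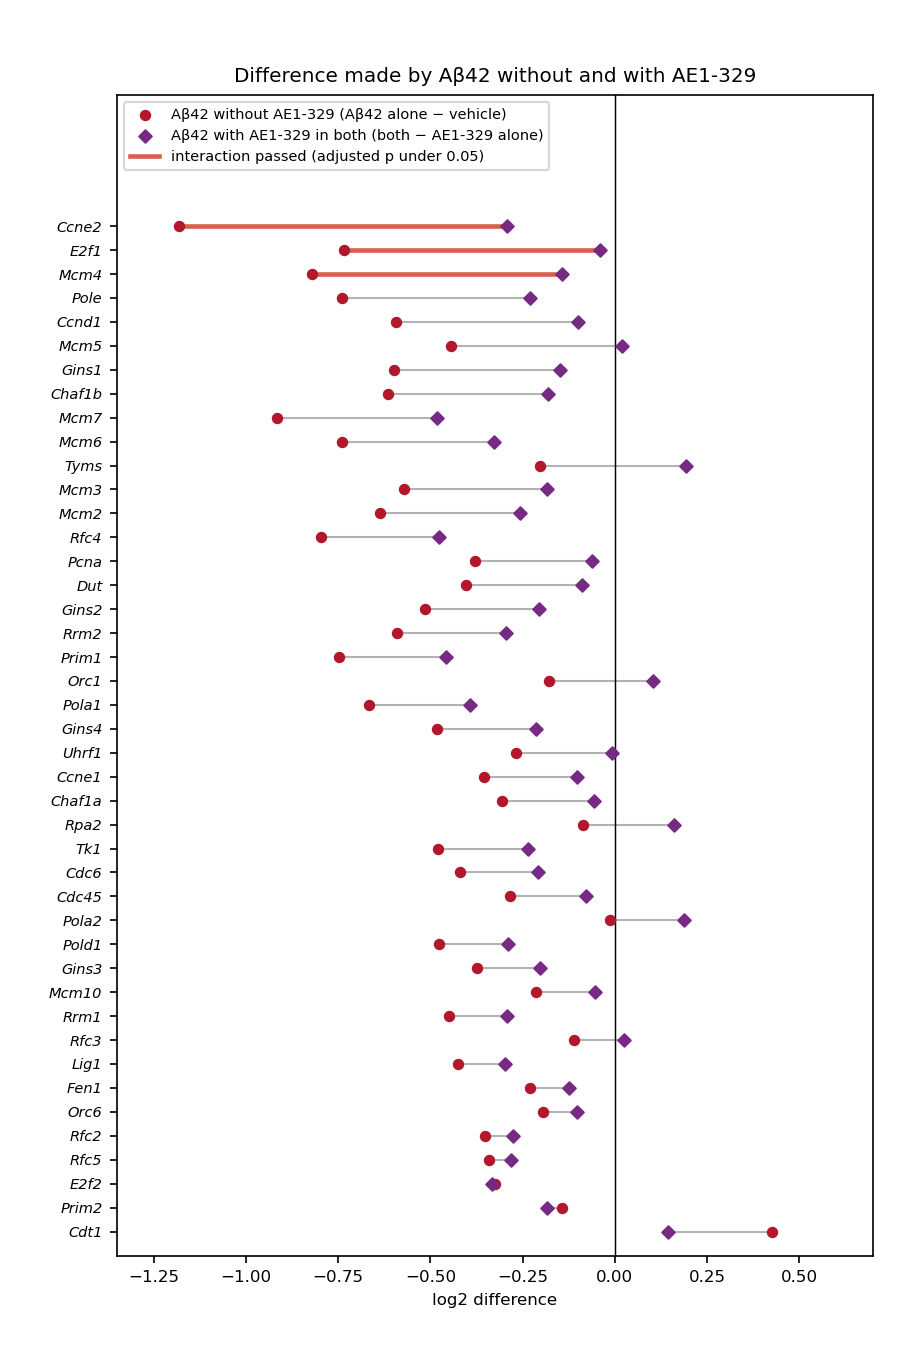
For each of the 43 genes, the log2 difference made by Aβ42 without AE1-329 (circles, Aβ42 alone minus vehicle) and with AE1-329 in both groups (diamonds, both minus AE1-329 alone), ordered by the interaction, which is the length of the line between them. The diamond lies right of the circle for 40 genes, and the thick lines mark Ccne2, E2f1 and Mcm4, whose interaction passed.

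Other genes of replication and the cell cycle were read from lists by function, also drawn up with earlier results of these data known. Of 32 further replication factors, 18 fell and 1 (Orc2) rose with Aβ42, against 14.8% and 10.7% of all genes. Their median was -0.22. Dna2, a helicase and nuclease of Okazaki fragments, fell by 1.24, and Wdhd1, which ties polymerase alpha to the helicase, by 1.19 (limma adjusted p = 3.36e-08 and 6.35e-08). Pole2, a subunit of polymerase epsilon, fell by 0.91 (6.52e-07 in limma). With AE1-329 alone 5 of the 32 fell and 2 rose, against 5.45% and 4.71% of all genes. Against Aβ42 alone, 4 of the 32 rose and 1 fell when AE1-329 was added, against 5.99% and 5.04% of all genes. Donson, a helicase assembly factor, rose by 0.42 ± 0.05, Gmnn, the inhibitor of Cdt1, by 0.24 ± 0.05, and Atad5, which unloads Pcna, by 0.31 ± 0.08 (limma adjusted p = 0.000137, 0.00676 and 0.0243). Gmnn had fallen by 0.45 with Aβ42 alone (limma adjusted p = 1.31e-05), the comparison in which Cdt1 rose.

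Of 18 other nucleotide and chromatin genes, 6 fell and 0 rose with Aβ42, against 14.8% and 10.7% of all genes. At an unadjusted p under 0.05 in limma 8 were lower and 0 higher, against 18.5% and 15.3% of all genes. Their median was -0.13. Dnmt1, the maintenance DNA methyltransferase, fell by 0.68, the histone chaperone Asf1b by 0.68 and the thymidylate kinase Dtymk by 0.33 (limma adjusted p = 2.68e-07, 0.000196 and 0.000161). With AE1-329 alone 6 of the 18 fell and 0 rose, against 5.45% and 4.71% of all genes. When AE1-329 was added, Asf1b rose by 0.40 ± 0.10, while Gart, of purine synthesis, and Dctd, of pyrimidine deamination, fell by 0.38 and 0.49 (limma adjusted p = 0.0212, 0.00162 and 0.00394). In all, 1 rose and 3 fell there, against 5.99% and 5.04% of all genes.

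The 14 other G1/S activators did not move one way, with 3 higher (Cdk6, Myc and Cdc25a) and 7 lower after Aβ42. Over all genes 10.7% were higher and 14.8% lower. With AE1-329 alone 8 of the 14 fell and 0 rose, against 5.45% and 4.71% of all genes, and their median was -0.28. Cdk6, a kinase partner of cyclin D, rose by 1.38 ± 0.05 with Aβ42 and fell by 1.06 with AE1-329 alone (limma adjusted p = 6.5e-10 and 8.65e-08). Myc, a transcription factor of growth, rose by 0.63 ± 0.09 with Aβ42 and fell by 0.99 with AE1-329 (0.000149 and 1.42e-05 in limma). Tfdp2, an E2F partner, fell by 1.09 and Skp2, which marks Cdkn1b for destruction, by 0.50 with Aβ42 (limma adjusted p = 3.61e-05 and 4.36e-05). When AE1-329 was added to Aβ42, Cdk6 fell by 1.27, Myc fell by 0.57 and Cdk2 rose by 0.19 ± 0.06 (limma adjusted p = 2.14e-08, 0.00106 and 0.0461), and the other 11 did not pass. Over all genes 5.99% rose and 5.04% fell in that comparison. The other D cyclins did not pass with Aβ42, at -0.08 ± 0.29 for Ccnd2 and -0.22 ± 0.11 for Ccnd3 (limma adjusted p = 0.886 and 0.168).

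Of 16 measured G1/S brakes, 3 rose and 7 fell with Aβ42, against 10.7% and 14.8% of all genes. Those that fell were the retinoblastoma family (Rb1, Rbl1 and Rbl2), the kinase inhibitors Cdkn1b and Cdkn2c, and the repressors E2f7 and E2f8, which E2F factors themselves switch on in the cell cycle. Cdkn2b, an inhibitor of Cdk4 and Cdk6, rose by 1.02 ± 0.07, and the antiproliferative Btg2 rose by 0.55 ± 0.05 (limma adjusted p = 1.21e-07 and 2.55e-06). Cdkn1b, an inhibitor of cyclin E kinase, fell by 0.80, and the retinoblastoma relative Rbl2 fell by 0.83 (2.39e-06 and 3.96e-06 in limma). With AE1-329 alone 4 of the 16 rose and 1 fell, against 4.71% and 5.45% of all genes, with differences from -0.58 to 0.71. Of the 4, Cdkn1b rose by 0.34 ± 0.07, Rbl2 by 0.33 ± 0.08 and the antiproliferative Btg1 by 0.71 ± 0.06 (limma adjusted p = 0.0096, 0.02 and 3.75e-06). When AE1-329 was added to Aβ42, Rbl2 rose by 0.85 ± 0.08, Cdkn1b by 0.65 ± 0.07 and Btg1 by 0.62 ± 0.06 (1.87e-05, 7.05e-05 and 1.07e-05 in limma). In that comparison 5 of the 16 rose and 1, Btg2, fell, against 5.99% and 5.04% of all genes. Cdkn1a and Trp53 were not analysed here.

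Of 19 mitosis genes, 13 fell and 0 rose with Aβ42, against 14.8% and 10.7% of all genes. At an unadjusted p under 0.05 in limma 14 were lower and 0 higher, against 18.5% and 15.3% of all genes. Their median was -0.48. The kinase gene Bub1b fell by 0.83, the transcription factor Foxm1 by 0.75 and the kinase Aurkb by 0.74 (limma adjusted p = 0.000713, 2.68e-05 and 0.000839). Mki67, a marker of cycling cells, fell by 0.32 (limma adjusted p = 0.0192), and Top2a, a topoisomerase, differed by -0.23 ± 0.12 (0.205). With AE1-329 alone none of the 19 passed, where 5.45% of all genes fell and 4.71% rose. At an unadjusted p under 0.05 in limma 2 were lower and 0 higher, against 11.4% and 9.73% of all genes. When AE1-329 was added to Aβ42, Nusap1 rose by 0.48 ± 0.12, Mki67 by 0.38 ± 0.09 and Foxm1 by 0.31 ± 0.09 (limma adjusted p = 0.0163, 0.0174 and 0.0375). All 19 were positive there with a median of 0.28, against 8618 of all 19938 genes positive and a median of -0.02.

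**Figure D5:**
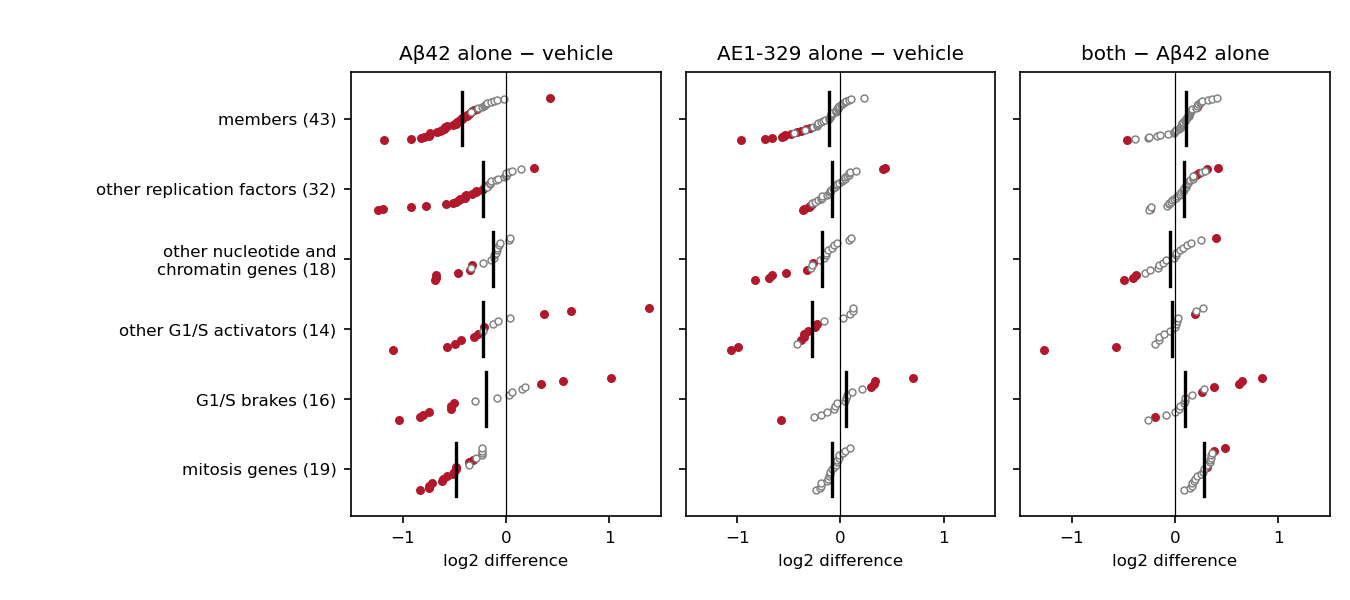
Log2 differences of the 43 genes and of 5 lists of related genes (rows, number of genes in brackets) in 3 comparisons (panels); each point is a gene, filled where it passed at an adjusted p under 0.05, and the bar is the median of the list. With Aβ42 alone the medians of the 43 genes and of the mitosis genes lie at -0.43 and -0.48, and when AE1-329 was added to Aβ42 they lie at 0.11 and 0.28.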

How the data were processed

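The deposited values are log2 expression values, 1 for each probe set and array. The submitters' processing notes list RMA (in its usual form background correction, quantile normalization and probe summary) and Partek 6.5 but give no role. The range of the values shows the scale (2.79 to 13.95, array medians 6.97 to 7.05). Scanner files were not used here, so signal over background is unknown, and changes are relative to the bulk of genes. Of 35556 probe sets, 21789 carried 1 symbol, 1621 several and 12146 none; 19938 genes remained, with no filter on dim ones.

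The fit used limma 3.58.1 (lmFit, eBayes) under R 4.3.3, with a mean for each group over all 12 arrays (8 residual and 4.54 prior degrees of freedom). Tests were two-sided, and Benjamini-Hochberg adjusted p under 0.05 over the genes of a comparison counted as passed. The design text names 3 litters as replicates, so same-numbered arrays were taken as paired. Over 18 such pairs the residuals had a mean correlation of 0.326, and 17 pairs were above 0.1. The block leaves 6 residual degrees of freedom. The fit was tested on simulated data with independent arrays and the same spread in every group. The simulated arrays held no litters, so the test does not cover pairing or the larger spread of the vehicle arrays.

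The 43 genes and the related lists were chosen with earlier results of these data known. Array values are given, per role, for the genes with the smallest unadjusted p: up to 3 for Aβ42 alone, and up to 2 each for AE1-329 alone, both agents against Aβ42 alone, and the interaction. From each related list up to 3 genes were named for Aβ42 alone and for both agents against Aβ42 alone, beside Cdkn1b, Ccnd2, Ccnd3, Myc, Mki67 and Top2a; Orc2, Cdc25a, Rb1, Rbl1, Cdkn2c, E2f7 and E2f8 were named after their values were seen. Alternatives were the block, a filter at the median level, averaging the probe sets of each gene, a further quantile normalization, a trended robust prior, only the groups compared, all probe sets, and each array left out. Ctps1 and Ccnb1 were not analysed here. Promoter windows came from RefSeq GRCm38.p6.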

Additional observations from a re-analysis of the deposited data

Results flagged for a closer look

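The interaction of Aβ42 and AE1-329 passed limma's test for Ccne2 (0.89), E2f1 (0.69) and Mcm4 (0.68), so that the difference made by Aβ42 differed between cells with and without AE1-329. Over the alternatives the adjusted p ran from 0.000151 to 0.00138 for E2f1, from 0.000268 to 0.0345 for Ccne2 and from 0.00264 to 0.0211 for Mcm4. Ccne2 lay below the median level, so the filter at that level removed it and did not test it.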

How the results depend on the processing

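No gene of the 43 changed the sign of a call under any alternative, and the median of the 43 kept its sign in each comparison. With the replicate block, 36 genes were lower with Aβ42 alone, 1 was higher with AE1-329 alone, 10 were higher and 3 lower with both agents against Aβ42 alone, 19 were lower with both agents against AE1-329 alone, and 11 had a positive interaction. The shares of all genes for the block are given above. In a fit to only the groups compared, 0 were higher with Aβ42 alone, against 8.01% of all genes. In that fit 5 were higher and 3 lower with both against Aβ42 alone, against 7.91% and 6.91% of all genes. With both against AE1-329 alone it gave 13 lower and 1 higher, against 14.5% and 12% of all genes. The interaction needs all groups and was not run in that way. Adjusted over all probe sets, 0 were higher with Aβ42 alone and 3 lower with both against AE1-329 alone, against 9.39% and 10.6% of all genes. Among genes above the median level (38 of the 43), 5 were higher with both against Aβ42 alone, against 13.4% of all genes above that level. Orc1, Cdc6, Gins1, Dut and Ccne2 lay below it. Leaving out 1 array gave 0 to 1 higher and 27 to 35 lower with Aβ42 alone (8.82% to 12.2% and 12.2% to 17.1% of all genes). With AE1-329 alone 9 to 14 were lower (3.57% to 6.87% of all genes). With both against Aβ42 alone 0 to 6 were higher and 0 to 3 lower (4% to 8.47% and 3.36% to 7.05%). With both against AE1-329 alone 0 to 1 were higher and 1 to 13 lower (7.97% to 12.1% and 9.56% to 15%). Positive interactions numbered 3 to 8 (0.597% to 1.61% of all genes). The causes were not tested.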

Other observations

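Replicate 1 had the lowest median of the 43 genes in each of the 4 groups, relative to the vehicle mean (-0.15 with vehicle, -0.24 with AE1-329, -0.53 with Aβ42 and -0.41 with both). For the mitosis genes, too, replicate 1 had the lowest median in each group. In the same order of groups, their medians in replicate 1 were -0.07, -0.27, -0.77 and -0.49. They were 0.02, 0.0026, -0.35 and -0.10 in replicate 2 and 0.09, 0.02, -0.31 and -0.02 in replicate 3. Replicate numbers were taken as litters here.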
